A study of Mus musculus with 8 samples.

Results

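The effect of losing Slc6a8 was measured in bone marrow-derived macrophages treated with IL-4. It is the comparison of 1 knockout library with 1 wild-type library, 2 of the 8 RNA sequencing libraries of the series. The knockout (KO) macrophages came from Slc6a8-/y mice, and the wild-type (WT) macrophages from mice without the deletion, both on the C57BL/6 background. Bone marrow of either genotype was differentiated for 5 days with 10% M-CSF, the growth factor that drives macrophage formation. The cells then received IL-4 at 10 ng/mL for 6 hours. A second pair, KO and WT macrophages grown in the same way and left untreated, shares no library with the IL-4 pair and is set beside it below. The other 4 libraries are thioglycollate-elicited peritoneal macrophages of both genotypes, untreated or given IFN-gamma at 10 ng/mL for 12 hours. There are no replicates of any group, so the difference between the 2 IL-4 libraries has no replicate check and is given as a size without a test. The labels do not say how many animals stand behind a library, or whether the treated and untreated cells of a genotype came from the same animal.

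Slc6a8 encodes the X-linked creatine transporter of the plasma membrane, through which most cells take up the creatine that buffers ATP as phosphocreatine. IL-4 binds a receptor that activates JAK kinases and the transcription factor STAT6, and STAT6 induces the genes of alternative macrophage activation, among them Arg1, Mrc1, Retnla and Chil3. Type I interferons act through another receptor and a transcription factor complex that binds interferon-stimulated response elements (ISRE) in the promoters of antiviral genes, and macrophages keep a low tonic level of this response in culture. The question behind the comparison is which transcripts respond when a polarizing macrophage cannot import creatine.

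Levels are FPKM, fragments scaled to transcript length and to the library total, and differences are log2 ratios of KO over WT after adding 1 FPKM, which understates the change of low genes. Genes with at least 5 FPKM in either IL-4 library were compared, without small RNA genes whose names begin with Mir or Snor. Of 18125 genes in the series, 8079 reached this level, 25 were small RNA genes and 8054 were compared, of which 7771 reached it in both libraries, 138 in KO alone and 145 in WT alone. Just inside the limit stood Isg20, at 5.00 FPKM in KO and 2.69 FPKM in WT, and Nudt16, at 4.76 FPKM in KO and 5.00 FPKM in WT. Just outside stood Limk2, at 4.99 FPKM in KO and 4.31 FPKM in WT. The 4 bone marrow libraries held 20553654 to 21221526 expected counts each. A gene near 5 FPKM had a median of 329 counts in the KO IL-4 library and 313 counts in the WT IL-4 library. Intervals on single genes below are 95% exact binomial intervals of the log2 ratio of counts per total count, without a pseudocount. They cover counting error only, and PCR copies of one molecule would make them too narrow.

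The targeted gene went with the labels. Slc6a8 (chromosome X, 73673133 to 73682502 in GRCm38.p6) stood at 1.15 FPKM in KO and 87.92 FPKM in WT macrophages after IL-4, and at 1.71 FPKM in KO and 97.34 FPKM in WT untreated macrophages. Both KO libraries lay far below both WT libraries, and 98 expected counts were still assigned to the gene in the KO IL-4 library, against 7240 in the WT IL-4 library. The log2 difference was -5.37 in the IL-4 pair, with a counting interval of -6.56 to -5.97, and -5.18 in the untreated pair. It was the largest decrease among the 8054 genes. Macrophage markers were abundant in both IL-4 libraries. Cd68 stood at 1723.54 FPKM in KO and 1751.21 FPKM in WT, Csf1r at 1233.53 FPKM in KO and 1188.35 FPKM in WT, and Adgre1, which encodes F4/80, at 448.05 FPKM in KO and 477.80 FPKM in WT. The median difference over 25 macrophage identity genes was 0.00. Xist stayed at or below 0.01 FPKM and the Y-linked gene Eif2s3y stood between 18.71 and 22.36 FPKM in the 4 libraries, which therefore matched in sex.

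Most genes hardly differed between KO and WT after IL-4. The median log2 difference was 0.01, and 91.7% of genes lay within 1.2-fold. At least 2-fold higher in KO were 21 genes, 0.261% of those compared, and at least 2-fold lower were 8 genes, 0.0993%. At 1.5-fold, 79 genes were higher (0.981%) and 96 lower (1.19%). In the untreated pair, over the same genes, 14 were at least 1.5-fold higher in KO (0.174%) and 74 lower (0.919%), and at 2-fold 2 were higher (0.0248%) and 8 lower (0.0993%). The higher and the lower genes recurred to different extents. Of the 79 genes at least 1.5-fold higher after IL-4, 8 were also 1.5-fold higher without it, which is 10.1% of the IL-4 list and 57.1% of the untreated list. Of the 96 lower genes, 61 were also lower without IL-4, which is 63.5% of the IL-4 list and 82.4% of the untreated list. The median untreated difference was 0.08 for the 79 higher genes and -0.64 for the 96 lower genes. Whether these shares differ beyond library-to-library variation was not tested.

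The 21 genes at least 2-fold higher in KO were mostly interferon-inducible. They were Ifit1, Ifit2, Ifit3, Isg15, Oas2, Oas3, Oasl1, Oasl2, Cmpk2, Rtp4, Usp18, Gbp2, Ifi47, Ifi203, Ifi208, Ms4a4c, H2-T24, Gm7367, Rpl14-ps1, Rpl37rt and Tmem254c. Of these, 11 belong to the type I interferon list, which holds 30 of the 8054 genes compared. The counting intervals of all 21 left out 0, but the genes were chosen by this same ratio, so the intervals add no support. Only 11 of the 21 reached 5 FPKM in both IL-4 libraries, and a gene that passed through KO alone had to be higher there. The 8 genes at least 2-fold lower were Slc6a8, the 4 collagen genes Col1a1, Col3a1, Col6a1 and Col6a2, the matrix protease inhibitor Timp3, the growth factor Gdf3 and Tmem254b. Several of the 29 are uncertain because reads can be shared with a near-identical copy. Tmem254c stood at 15.64 FPKM in KO and 1.58 FPKM in WT after IL-4, whereas its copy Tmem254b was listed at 0 in KO and stood at 12.77 FPKM in WT. Rpl14-ps1, a copy of a ribosomal protein gene, stood at 48.06 FPKM in KO and was listed at 0 in WT after IL-4, but stood at 38.00 FPKM in KO and 43.65 FPKM in WT untreated macrophages.

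**Figure D1:**
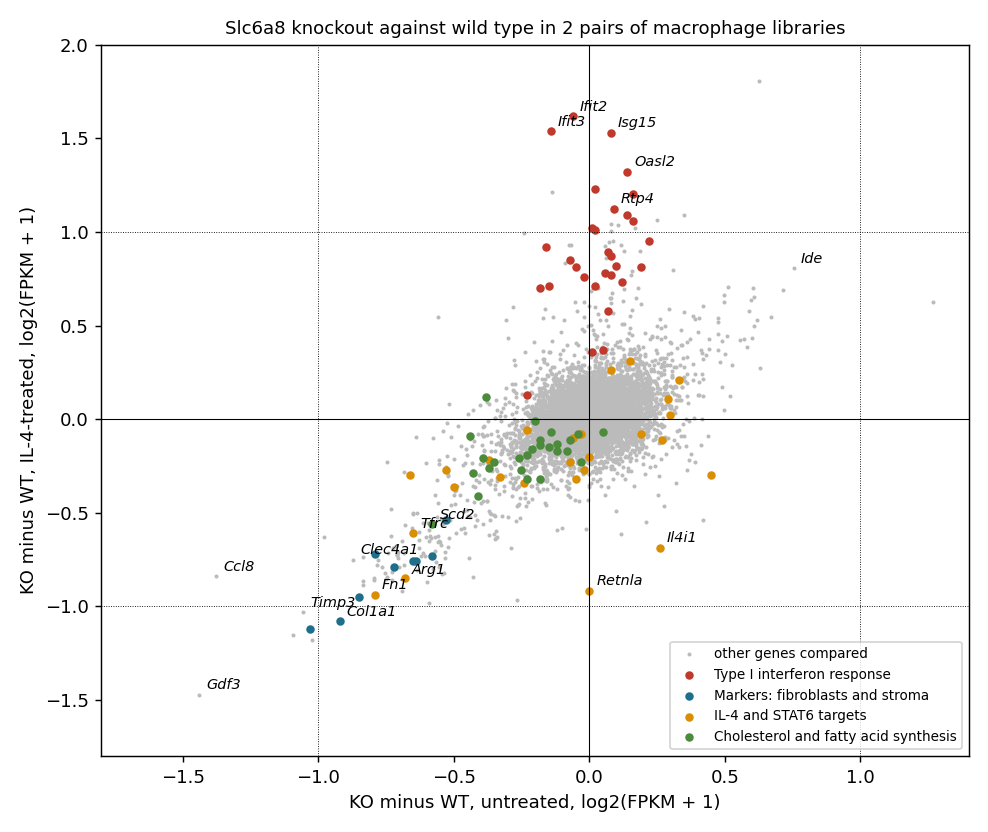
Log2 difference in FPKM + 1 between KO and WT for each gene compared, in untreated macrophages (horizontal axis) and in IL-4-treated macrophages (vertical axis), with dotted lines at 2-fold; 4 genes lie outside the plotted range. Type I interferon genes (red) spread upward near 0 on the horizontal axis, and stromal genes (blue) lie in the lower left, low in both pairs.

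Type I interferon response genes were higher in the KO library after IL-4 and nearly equal between the genotypes without it. Of 35 members of the list, 30 passed the level filter. All 30 were above 0 in the IL-4 pair, where 54.7% of all genes compared were, with a median difference of 0.86 and a range of 0.13 to 1.62. Of these, 26 were at least 1.5-fold and 11 at least 2-fold higher in KO. In the untreated pair the same 30 genes had a median of 0.05 and a range of -0.23 to 0.22. Above 0 there were 21 of the 30, against 50.8% of all genes compared. Since all 30 were above 0 after IL-4, these 21 were higher in both pairs. The share of all genes compared that were higher in both pairs was not counted. The level filter uses the IL-4 libraries, so a member that passes only through the KO library had to be higher there. The 5 members under the filter were Mx1, Mx2, Ifi44, Ifit3b and Cxcl10, and they were also higher in KO after IL-4. Mx1, for example, which the annotation calls a transcribed pseudogene, stood at 3.86 FPKM in KO and 1.18 FPKM in WT.

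The same genes were also higher in KO in the peritoneal pair given IFN-gamma, which shares no library with the bone marrow pairs. All 30 were above 0 there, where 42.5% of all genes compared were, with a median difference of 1.76 and a range of 0.06 to 3.16, and 26 were at least 1.5-fold higher, against 2.84% of all genes compared. In the untreated peritoneal pair 22 of the 30 were above 0, against 54.3% of all genes compared, with a median of 0.08. Ifit3 stood at 30.24 FPKM in KO and 2.64 FPKM in WT peritoneal macrophages with IFN-gamma, and at 0.22 FPKM in KO and 0.19 FPKM in WT without it. The higher level in KO was thus seen in both cytokine-treated pairs. Cell source, cytokine and time differ between the pairs, and their differences were not compared by a test.

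The largest differences in the list were those of Ifit2, Ifit3 and Isg15. Ifit proteins bind foreign RNA at its 5′ end and block its translation. Ifit2 (chromosome 19, 34550550 to 34576534) stood at 14.67 FPKM in KO and 4.11 FPKM in WT macrophages after IL-4, and at 11.43 FPKM in KO and 11.96 FPKM in WT untreated macrophages. Its log2 difference was 1.62 after IL-4, with a counting interval of 1.66 to 2.01, and -0.06 without it. Ifit3 stood at 18.72 FPKM in KO and 5.79 FPKM in WT after IL-4, and at 20.22 FPKM in KO and 22.43 FPKM in WT untreated macrophages. For both genes the WT IL-4 library was the low one of the 4. Isg15, a ubiquitin-like modifier, stood at 31.71 FPKM in KO and 10.31 FPKM in WT after IL-4, against 18.41 FPKM in KO and 17.37 FPKM in WT untreated macrophages. Here the KO IL-4 library was the highest and the WT IL-4 library the lowest. Usp18, which removes Isg15 from proteins, followed the same order, with 17.25 FPKM in KO and 7.97 FPKM in WT after IL-4, against 12.78 FPKM in KO and 12.69 FPKM in WT untreated macrophages.

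The oligoadenylate synthetase family, which senses double-stranded RNA, showed the same order of libraries. Oasl2 stood at 92.47 FPKM in KO and 36.36 FPKM in WT after IL-4, and at 63.94 FPKM in KO and 57.95 FPKM in WT untreated macrophages. Oas3 stood at 74.24 FPKM in KO and 34.36 FPKM in WT after IL-4, and at 58.60 FPKM in KO and 53.00 FPKM in WT untreated macrophages. Among RNA and DNA sensors, Ddx58, which encodes RIG-I, stood at 24.27 FPKM in KO and 13.28 FPKM in WT after IL-4, a difference of 0.82. Zbp1, a sensor of Z-form nucleic acid, stood at 33.22 FPKM in KO and 17.98 FPKM in WT after IL-4, against 14.48 FPKM in KO and 15.21 FPKM in WT untreated macrophages. The transcription factors of the pathway were smaller in difference. Irf7 stood at 136.83 FPKM in KO and 83.15 FPKM in WT after IL-4, against 75.23 FPKM in KO and 83.51 FPKM in WT untreated macrophages. Stat2 differed by 0.71 and Irf9 by 0.37 in the IL-4 pair, and by 0.02 and 0.05 in the untreated pair. The smallest differences in the list were those of Bst2, at 0.36, and Ifi27l2a, at 0.13, which were also 2 of its most abundant members.

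Set against untreated cells of the same genotype, the list moved in opposite directions. The median change with IL-4 over the 30 genes was 0.34 in KO, with 29 genes higher after IL-4, and -0.49 in WT, with 29 genes lower after IL-4. Over all genes compared, the median change with IL-4 was 0.01 in KO and -0.02 in WT. The KO IL-4 library was the highest of the 4 in 28 of the 30 genes, the WT IL-4 library the lowest in 27, and both held in 25. How often these orders held over all genes compared was not counted. The median level over the 30 genes was 32.00 FPKM in KO after IL-4, 17.58 FPKM in WT after IL-4, 21.44 FPKM in KO untreated and 21.98 FPKM in WT untreated macrophages. The KO response, the WT response and the difference between KO and WT after IL-4 share libraries and are not independent. Each rests on 1 library a side, so a difference between cultures cannot be told apart from the genotype.

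**Figure D2:**
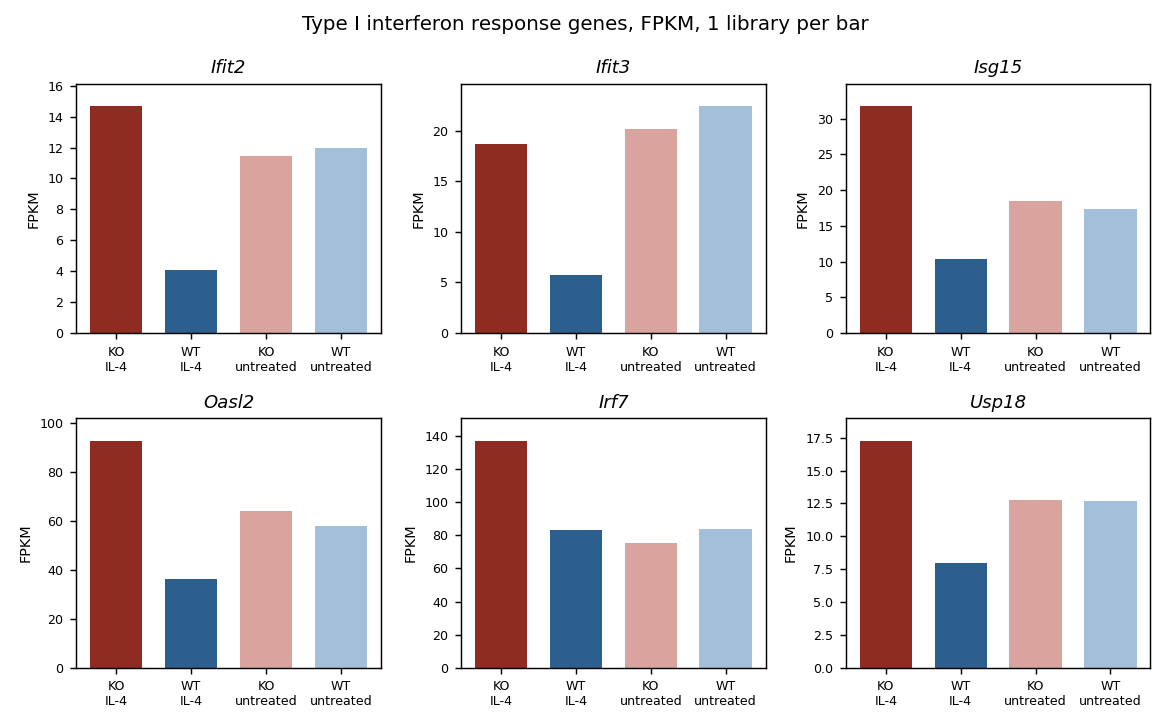
Level in FPKM of 6 type I interferon response genes in the 4 bone marrow-derived macrophage libraries, 1 library per bar, with no error between cultures. In each panel the KO IL-4 bar stands above the WT IL-4 bar, whereas the bars of the untreated pair differ little.

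Other interferon-inducible families showed like values, and the PYHIN, GTPase and Schlafen sets were drawn up after the values were seen. The 8 compared PYHIN genes, which include DNA sensors of the Ifi200 group, had a median difference of 0.90 after IL-4 and -0.03 without it. The 7 interferon-inducible GTPases had medians of 0.79 after IL-4 and 0.11 without it, and the 4 Schlafen genes 0.57 after IL-4 and 0.03 without it. Of 17 MHC class I and immunoproteasome genes, 14 were higher in KO after IL-4, with a median of 0.22, against 0.07 in the untreated pair. Across both pairs 7 of them rose by edgeR, 1 by DESeq2 and 2 by limma, in the fit described further on. The nonclassical class I gene H2-T23 was the highest, at 173.52 FPKM in KO and 125.99 FPKM in WT after IL-4. B2m, the shared light chain, stood at 2949.61 FPKM in KO and 3000.27 FPKM in WT after IL-4. Over 18 inflammatory and NF-kB genes the median difference was -0.03. Tnf, for example, stood at 5.85 FPKM in KO and 5.62 FPKM in WT after IL-4.

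The overlap with the genes that IFN-gamma induced in peritoneal macrophages was counted, since interferon types share targets. In WT peritoneal macrophages, 402 of the 8054 genes, or 4.99%, were at least 2-fold higher with IFN-gamma than without it. Of the 79 genes at least 1.5-fold higher in KO after IL-4, 47 were in that set, which is 59.5% of the 79 and 11.7% of the set. The set as a whole had a median difference of 0.09 in the IL-4 pair, with 68.2% of its genes above 0. Most IFN-gamma-induced genes differed little between KO and WT after IL-4.

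Ifnb1, the interferon beta gene, gave little signal. It had 6 expected counts in KO and 0 in WT after IL-4, and 0 in KO and 2 in WT untreated macrophages. The receptor genes were nearly level. Ifnar1 stood at 33.02 FPKM in KO and 34.77 FPKM in WT after IL-4, and Ifnar2 at 114.61 FPKM in KO and 128.21 FPKM in WT. Sting1, the adaptor of cytosolic DNA sensing, stood at 38.36 FPKM in KO and 34.46 FPKM in WT after IL-4, and at 29.89 FPKM in KO and 25.73 FPKM in WT untreated macrophages.

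Promoters are shown for 4 of the interferon genes, because the pathway is known for its response element, and for Retnla as an IL-4 target. The 250 bases before each start site were read from RefSeq on GRCm38.p6. They were searched on both strands for GAAANNGAAA, an ISRE core, and for TTCNNNNGAA, a STAT6-type site. For each gene shown, the first promoter entry with a match is printed, so every printed window holds its motif by choice. The Ifit3 window lies inside the annotated gene, which begins at 34583119. The Oas3 window overlaps the 5′ end of its gene, at 120777684. Each sequence is printed 5′ to 3′ on the gene's strand, with matches in capitals, ISRE cores in the first 4 and the STAT6-type site in Retnla.
Isg15, chr4:156200819-156201068, minus strand: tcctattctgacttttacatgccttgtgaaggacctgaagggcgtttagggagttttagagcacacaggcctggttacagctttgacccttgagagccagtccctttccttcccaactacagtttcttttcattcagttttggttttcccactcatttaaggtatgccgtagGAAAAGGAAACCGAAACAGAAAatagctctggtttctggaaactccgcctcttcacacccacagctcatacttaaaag
Ifit3, chr19:34583279-34583528, plus strand: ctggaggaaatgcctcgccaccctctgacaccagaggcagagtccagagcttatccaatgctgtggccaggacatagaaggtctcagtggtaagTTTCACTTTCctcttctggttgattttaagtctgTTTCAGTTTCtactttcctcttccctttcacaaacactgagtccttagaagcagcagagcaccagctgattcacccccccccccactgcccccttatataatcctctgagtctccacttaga
Ifit1, chr19:34640639-34640888, plus strand: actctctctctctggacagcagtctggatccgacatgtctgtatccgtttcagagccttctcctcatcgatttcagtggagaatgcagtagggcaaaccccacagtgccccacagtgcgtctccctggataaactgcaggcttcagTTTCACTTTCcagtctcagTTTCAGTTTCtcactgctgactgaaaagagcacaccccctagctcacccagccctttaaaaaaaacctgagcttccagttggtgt
Oas3, chr5:120777660-120777909, minus strand: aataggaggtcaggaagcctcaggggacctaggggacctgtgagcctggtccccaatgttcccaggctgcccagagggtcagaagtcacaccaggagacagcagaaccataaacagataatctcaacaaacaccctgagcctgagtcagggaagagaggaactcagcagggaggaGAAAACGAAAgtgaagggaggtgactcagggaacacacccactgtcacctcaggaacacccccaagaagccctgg
Retnla, chr16:48842359-48842608, plus strand: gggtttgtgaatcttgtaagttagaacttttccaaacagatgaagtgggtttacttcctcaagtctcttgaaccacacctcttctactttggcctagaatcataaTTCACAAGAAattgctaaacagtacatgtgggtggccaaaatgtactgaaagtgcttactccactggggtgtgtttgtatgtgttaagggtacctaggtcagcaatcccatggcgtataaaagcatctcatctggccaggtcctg

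The Isg15 window held 3 overlapping ISRE matches, which begin 78, 72 and 66 bases before the start. The Ifit3 window held 2, at 156 and 122 bases, the Ifit1 window 2, at 104 and 85 bases, and the Oas3 window 1, at 75 bases. A gene was counted if any of its promoter entries held a match. The ISRE core was found in 936 of 27025 mouse genes with a promoter entry, or 3.46%, and in 228 of the 6563 compared genes with one, or 3.47%. Among genes at least 1.5-fold higher in KO after IL-4 it was found in 24 of 62 with an entry, or 38.7%, and among genes at least 1.5-fold lower in 3 of 66, or 4.55%. In the type I interferon list it was found in 10 of 21 members with an entry. The STAT6-type site was found in 6.76% of all genes with an entry and in 5.5% of the compared genes with an entry. It was found in 4 of 19 IL-4 targets and in 5 of 21 type I interferon genes. Among genes at least 1.5-fold higher in KO after IL-4 it was found in 10 of 62, or 16.1%, and among genes at least 1.5-fold lower in 3 of 66, or 4.55%. A match says only that these letters occur in the window.

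The IL-4 program was switched on in both genotypes, and several of its best known genes were lower in KO. Of 41 IL-4 and STAT6 target genes, 26 passed the level filter, and 21 of these were below 0 in the IL-4 pair, where 44.9% of all genes compared were. Their median difference was -0.25, with a range of -0.94 to 0.31, against -0.04 in the untreated pair. At least 2-fold higher after IL-4 than without it were 19 of the 26 in KO and 20 in WT, with median changes of 1.90 in KO and 2.13 in WT. Lower by at least 1.5-fold in KO were 5 members, Arg1, Retnla, Il4i1, Tfrc and Fn1.

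Arg1, whose enzyme, arginase, competes with nitric oxide synthase for arginine, stood at 76.97 FPKM in KO and 139.89 FPKM in WT after IL-4, and at 0.42 FPKM in KO and 1.28 FPKM in WT untreated macrophages. Its difference was -0.85 after IL-4, with a counting interval of -0.93 to -0.79, and -0.68 without it. Retnla, the secreted resistin-like protein of alternative activation, stood at 10.65 FPKM in KO and 20.97 FPKM in WT after IL-4, from 129 counts in KO and 246 in WT. Neither untreated library listed any expression of it, and its counting interval after IL-4 was -1.30 to -0.66. Il4i1, a secreted amino acid oxidase, stood at 15.15 FPKM in KO and 25 FPKM in WT after IL-4, and at 1.08 FPKM in KO and 0.74 FPKM in WT untreated macrophages. In these 3 genes IL-4 raised the level in both genotypes, and the WT library ended higher.

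Tfrc, the transferrin receptor, stood at 41.10 FPKM in KO and 63.25 FPKM in WT after IL-4, and at 10.20 FPKM in KO and 16.56 FPKM in WT untreated macrophages. Mrc1, the mannose receptor, stood at 214.94 FPKM in KO and 266.33 FPKM in WT after IL-4, and at 22.19 FPKM in KO and 28.07 FPKM in WT untreated macrophages. Both were lower in KO by about the same log2 amount in either pair, -0.61 and -0.65 for Tfrc and -0.31 and -0.33 for Mrc1. Chil3, a chitinase-like protein, stood at 6.66 FPKM in KO and 7.80 FPKM in WT after IL-4, and at 1.08 FPKM in both untreated libraries. Egr2, a transcription factor of the IL-4 response, stood at 36.49 FPKM in KO and 47.03 FPKM in WT after IL-4. The 5 members above 0 were Flt1, Tgm2, Klf4, Ptgs1 and Irf4. Tgm2, a transglutaminase, stood at 304.64 FPKM in KO and 254.03 FPKM in WT after IL-4, and Flt1, a VEGF receptor, at 22.80 FPKM in KO and 18.22 FPKM in WT.

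**Figure D3:**
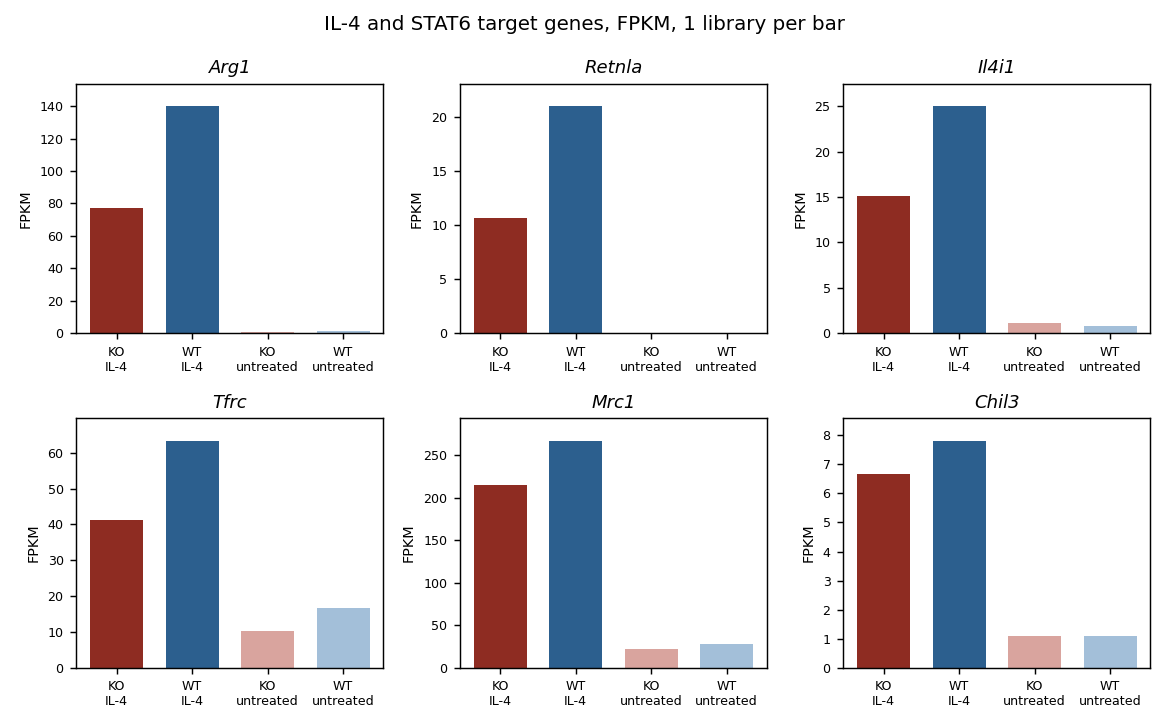
Level in FPKM of 6 IL-4 and STAT6 target genes in the 4 bone marrow-derived macrophage libraries, 1 library per bar, with no error between cultures. The IL-4 bars exceed the untreated bars in both genotypes, and the KO IL-4 bar is below the WT IL-4 bar in all 6 panels, least for Chil3.

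The signalling genes upstream were nearly level. Stat6 stood at 88.09 FPKM in KO and 88.33 FPKM in WT after IL-4, and Il4ra, the receptor chain that binds IL-4, at 24.47 FPKM in KO and 26.31 FPKM in WT. Over 17 compared receptor, Janus kinase and feedback genes the median difference was 0.00. Genes chosen by their own response, with a mean increase of at least 2-fold over both genotypes, numbered 98. Of these, 64 were lower in KO after IL-4, or 65.3%, with a median of -0.08. Lower by at least 1.5-fold were Retnla, Arg1, Pecam1, Il4i1 and Tfrc, and higher by at least 1.5-fold was Ablim1. That choice uses the IL-4 libraries themselves, so the counts are a description.

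Markers of fibroblasts and other stromal cells were lower in KO in both bone marrow pairs. Of 12 markers, 9 passed the level filter. All 9 were below 0 in both pairs, with a median of -0.76 after IL-4 and -0.72 in untreated macrophages, where 48.8% of all genes compared were below 0, and 8 were at least 1.5-fold lower after IL-4. In each of the 9 genes both KO libraries lay below both WT libraries. The share of all genes compared with this order was not counted. The summed level of all 12 markers was 364.29 FPKM in KO and 681.61 FPKM in WT after IL-4, and 421.51 FPKM in KO and 726.32 FPKM in WT untreated macrophages. Lum, a defining fibroblast proteoglycan, was at or near 0 in all 4 libraries, at most 0.14 FPKM, and Pdgfra, a fibroblast receptor, was at most 1.90 FPKM. In bulk RNA, fewer cells of a type and less RNA per cell cannot be told apart. In the peritoneal pairs the same 9 markers had a median difference of -0.22 with IFN-gamma and 0.00 without it. Above 0 there were 2 of the 9 with IFN-gamma and 4 without it, against 42.5% and 54.3% of all genes compared.

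Col1a1, the main chain of type I collagen, stood at 93.66 FPKM in KO and 198.89 FPKM in WT after IL-4, and at 109.59 FPKM in KO and 208.73 FPKM in WT untreated macrophages. Col3a1 stood at 13.04 FPKM in KO and 29.45 FPKM in WT after IL-4, and at 15.92 FPKM in KO and 33.65 FPKM in WT untreated macrophages. Timp3 stood at 19.46 FPKM in KO and 40.84 FPKM in WT after IL-4, and at 24.00 FPKM in KO and 50.93 FPKM in WT untreated macrophages. The genotypes did not overlap in any of the 3 genes. These are among the genes at least 2-fold lower after IL-4, so their order in that pair was set by the choice. The share of all genes compared without overlap was not counted. With IL-4 the 9 markers changed by a median of -0.20 in KO and -0.08 in WT. All 13 compared collagen genes were lower in KO in both pairs, with medians of -0.86 after IL-4 and -0.80 without it. Of all genes compared, 44.9% were below 0 after IL-4 and 48.8% without it. Among the 96 genes at least 1.5-fold lower, 1.19% of those compared, were 12 of the 13. The level filter uses the IL-4 libraries, so a collagen gene or marker that passes only through WT had to be lower in KO there. Col12a1, for example, stood at 4.89 FPKM in KO and 8.92 FPKM in WT after IL-4. Fn1, fibronectin, which both macrophages and fibroblasts make, stood at 42.21 FPKM in KO and 81.73 FPKM in WT after IL-4, and at 50.80 FPKM in KO and 88.76 FPKM in WT untreated macrophages. Fn1 is thus a member of the IL-4 target list that went with the stromal markers. The part of these cells in the other differences was not tested.

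**Figure D4:**
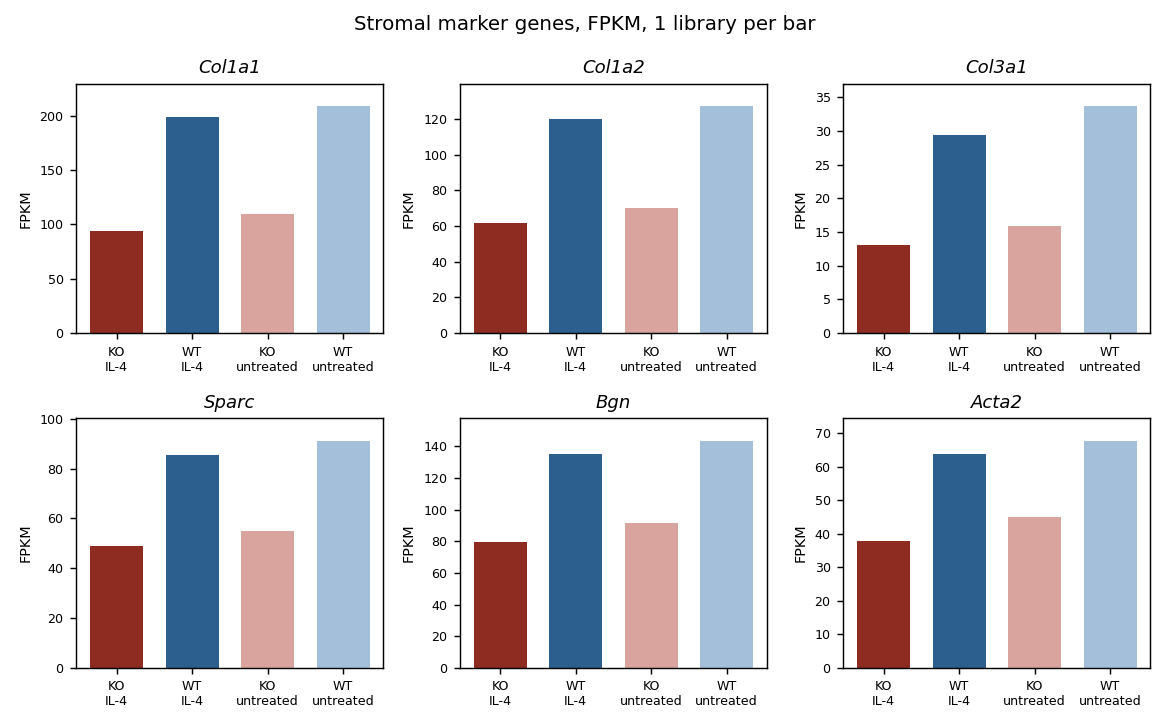
Level in FPKM of 6 stromal marker genes in the 4 bone marrow-derived macrophage libraries, 1 library per bar, with no error between cultures. Both KO bars lie below both WT bars in every panel, after IL-4 and without it.

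Markers of other blood cells were low or rested on genes that macrophages also express. T and NK cell markers summed to 1.48 FPKM in KO and 2.34 FPKM in WT after IL-4, with 6 of 12 at 0 in all 4 libraries. Eosinophil, basophil and mast cell markers summed to 3.61 FPKM in KO and 4.16 FPKM in WT after IL-4. The B cell sum, 91.49 FPKM in KO and 86.08 FPKM in WT, was nearly all Blnk, and the neutrophil sum, 71.96 FPKM in KO and 74.10 FPKM in WT, was nearly all Csf3r. The dendritic cell sum was 207.57 FPKM in KO and 164.58 FPKM in WT, nearly all of it Bst2, which is also an interferon target. Erythroid and megakaryocyte markers summed to 18.32 FPKM in KO and 22.26 FPKM in WT, and osteoclast markers to 111.77 FPKM in KO and 134.23 FPKM in WT after IL-4.

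One test is possible with these libraries, a genotype term fitted across the IL-4 and the untreated pair. It sets 2 KO against 2 WT libraries with treatment as a covariate and 1 residual degree of freedom. It asks what both pairs share, not what is particular to IL-4, and its p-values measure only the spread between these libraries, which may be technical. Of 12857 genes tested by edgeR's quasi-likelihood test with Benjamini-Hochberg adjustment, 324 rose (2.52%) and 573 fell (4.46%) in KO at an adjusted p under 0.05. DESeq2 called 44 genes that rose and 127 that fell, and limma 69 that rose and 230 that fell. Slc6a8 fell by 6.01 ± 0.09 on the log2 scale (SE, n = 2 libraries a side; edgeR adjusted p = 1.27e-13).

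All 9 compared stromal markers fell by edgeR, by DESeq2 and by limma. Col1a1 fell by 1.00 ± 0.05 on the log2 scale (SE; edgeR adjusted p = 7.87e-08). Of the 26 IL-4 targets, 10 fell and 3 rose by edgeR, whereas 4 fell and 0 rose by DESeq2 and 6 fell and 0 rose by limma. Arg1 fell by 0.89 ± 0.08 (SE; edgeR adjusted p = 2.02e-05, DESeq2 adjusted p = 0.149, limma adjusted p = 0.00874). Tfrc fell by 0.65 ± 0.05 (SE; edgeR adjusted p = 6.16e-06) and Mrc1 by 0.32 ± 0.04 (SE; edgeR adjusted p = 0.000634). Retnla fell by 0.97 ± 0.19 in edgeR (SE; adjusted p = 0.00918), an estimate from the IL-4 libraries alone since both untreated libraries were at 0, DESeq2 gave it no adjusted p, and limma gave an adjusted p of 0.341. Il4i1 did not pass, with an edgeR adjusted p of 0.0633.

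The interferon calls of this fit depended on the tool and the scaling. Of the 30 compared type I interferon genes, 14 rose by edgeR, but 3 rose with DESeq2's size-factor method in place of TMM scaling, 10 when protein-coding genes alone were fitted, and 17 without the filter on low counts. DESeq2 called 0 of the 29 that it gave an adjusted p, and limma 0 of 30. At an unadjusted p under 0.05 there were 27 by edgeR, 2 by DESeq2 and 18 by limma. Oasl2 had an estimate of 0.75 ± 0.18 (SE; edgeR adjusted p = 0.0230, limma adjusted p = 0.219), whereas Ifit2 (edgeR adjusted p = 0.113), Ifit3 (0.211) and Isg15 (0.0502) did not pass. A difference present in 1 pair only also adds to the residual spread of this fit. Whether the genotype difference depends on IL-4 cannot be tested with 1 library per group.

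Sterol and fatty acid synthesis genes were slightly lower in KO in both pairs. Of 26 compared genes, 25 were below 0 after IL-4, where 44.9% of all genes compared were, with a median of -0.17. In untreated macrophages the median was -0.20, and 24 genes were lower in both pairs. In 19 genes both KO libraries lay below both WT libraries, yet none was past 1.5-fold after IL-4. How many of all genes compared were lower in both pairs, or held this order of libraries, was not counted. By edgeR 10 fell and 0 rose, by DESeq2 3 fell and by limma 2 fell. Sqle, squalene epoxidase, stood at 19.93 FPKM in KO and 26.86 FPKM in WT after IL-4, and at 18.70 FPKM in KO and 25.22 FPKM in WT untreated macrophages. Scd2, a stearoyl-CoA desaturase, stood at 12.76 FPKM in KO and 19.28 FPKM in WT after IL-4, and at 11.68 FPKM in KO and 17.93 FPKM in WT untreated macrophages, and it fell by 0.60 ± 0.05 (SE; edgeR adjusted p = 1.71e-05). Apoe, the apolipoprotein of cholesterol efflux, stood at 3903.18 FPKM in KO and 6054.49 FPKM in WT after IL-4, and at 5155.97 FPKM in KO and 6538.67 FPKM in WT untreated macrophages. It fell by 0.48 ± 0.06 (SE; edgeR adjusted p = 0.000166, DESeq2 adjusted p = 0.0138), a call that limma did not make (adjusted p = 0.0692). Apoe was the lowest of 12 compared LXR target and cholesterol efflux genes, of which 8 were above 0 after IL-4, with a median of 0.06. By edgeR 2 of the 12 fell and 1 rose, by DESeq2 2 fell, and limma called 0 of them.

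Complement genes were also lower in KO in both pairs, with a median of -0.24 over 11 compared genes after IL-4 and -0.26 in untreated macrophages. By edgeR 8 of the 11 fell, by DESeq2 4 and by limma 3. C1qa, a chain of the first complement component, stood at 773.41 FPKM in KO and 1052.46 FPKM in WT after IL-4, and at 702.85 FPKM in KO and 944.56 FPKM in WT untreated macrophages. Serping1, the inhibitor of that component, stood at 9.11 FPKM in KO and 17.65 FPKM in WT after IL-4. Adhesion genes went the other way in part. Of 19 compared, 8 rose and 2 fell by edgeR, and 2 rose and 0 fell by DESeq2 and by limma alike. Itgal, the alpha chain of LFA-1, stood at 30.50 FPKM in KO and 22.41 FPKM in WT after IL-4, and at 48.97 FPKM in KO and 35.81 FPKM in WT untreated macrophages. Among chemokines, Ccl8, a monocyte attractant, stood at 6.85 FPKM in KO and 13.05 FPKM in WT after IL-4, and at 6.09 FPKM in KO and 17.43 FPKM in WT untreated macrophages.

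Creatine handling outside the transporter differed little. Gatm, the first enzyme of creatine synthesis, stood at 243.71 FPKM in KO and 214.73 FPKM in WT after IL-4, and at 36.97 FPKM in KO and 32.60 FPKM in WT untreated macrophages. It was strongly induced by IL-4 in both genotypes and rose by 0.19 ± 0.05 in KO (SE; edgeR adjusted p = 0.0309), a call that DESeq2 and limma did not make. Gamt, the second enzyme, stood at 18.62 FPKM in KO and 18.19 FPKM in WT after IL-4, and Ckb, the brain-type creatine kinase, at 215.55 FPKM in KO and 196.17 FPKM in WT. Slc6a12, which carries betaine and GABA and belongs to the same solute carrier family, stood at 8.95 FPKM in KO and 6.06 FPKM in WT after IL-4, and at 6.70 FPKM in KO and 5.47 FPKM in WT untreated macrophages.

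Energy metabolism and chromatin remodelling genes showed medians close to that of all genes in the IL-4 pair. The median difference was 0.03 over 20 glycolysis genes, 0.05 over 21 tricarboxylic acid cycle genes, 0.02 over 34 oxidative phosphorylation genes, 0.09 over 26 fatty acid oxidation and lipid uptake genes and 0.02 over 17 SWI/SNF subunits. None of these genes was past 1.5-fold. By edgeR, 1 glycolysis gene rose and 1 fell, 1 fatty acid oxidation gene fell, and 0 genes of the other 3 lists were called by edgeR, DESeq2 or limma. At an unadjusted p under 0.05 edgeR had 3 tricarboxylic acid cycle genes, 4 oxidative phosphorylation genes and 0 SWI/SNF subunits. The 36 ribosomal protein genes had a median of -0.03 after IL-4 and 0.03 without it. The 11 compared neighbours of Slc6a8 on the X chromosome had a median of 0.00, with L1cam the exception, at 17.33 FPKM in KO and 11.99 FPKM in WT after IL-4 and at 17.35 FPKM in KO and 11.04 FPKM in WT untreated macrophages.

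None of the other lists had a median beyond 0.15 in the IL-4 pair. Their calls across both pairs are to be read beside the shares over all genes tested by edgeR, 2.52% that rose and 4.46% that fell. Of 23 matrix, protease and tissue repair genes, 10 fell and 2 rose by edgeR, and 7 fell and 0 rose by DESeq2 and by limma alike. Sparc is in both this list and the stromal list. Of 20 immediate early genes, 7 fell and 3 rose by edgeR, and 2 fell and 0 rose by DESeq2 and by limma alike. Egr1, a growth factor-responsive transcription factor, was the lowest of them at 4.41 FPKM in KO and 7.52 FPKM in WT after IL-4. Of 28 pattern recognition and scavenger receptors, 5 fell and 1 rose by edgeR, 3 fell by DESeq2 and 2 fell by limma. Of 31 cell cycle genes, 6 fell and 1 rose by edgeR, but DESeq2 and limma called 0. Of 21 ATF4-dependent amino acid stress genes, 4 fell and 1 rose by edgeR, DESeq2 called 0 and limma 1 that fell. Of 14 arginine, polyamine and proline genes, 3 fell, Arg1 among them, and 1 rose by edgeR, DESeq2 called 0 and limma 1 that fell. The unfolded protein response and NRF2 lists had 1 gene each that fell by edgeR.

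**Figure D5:**
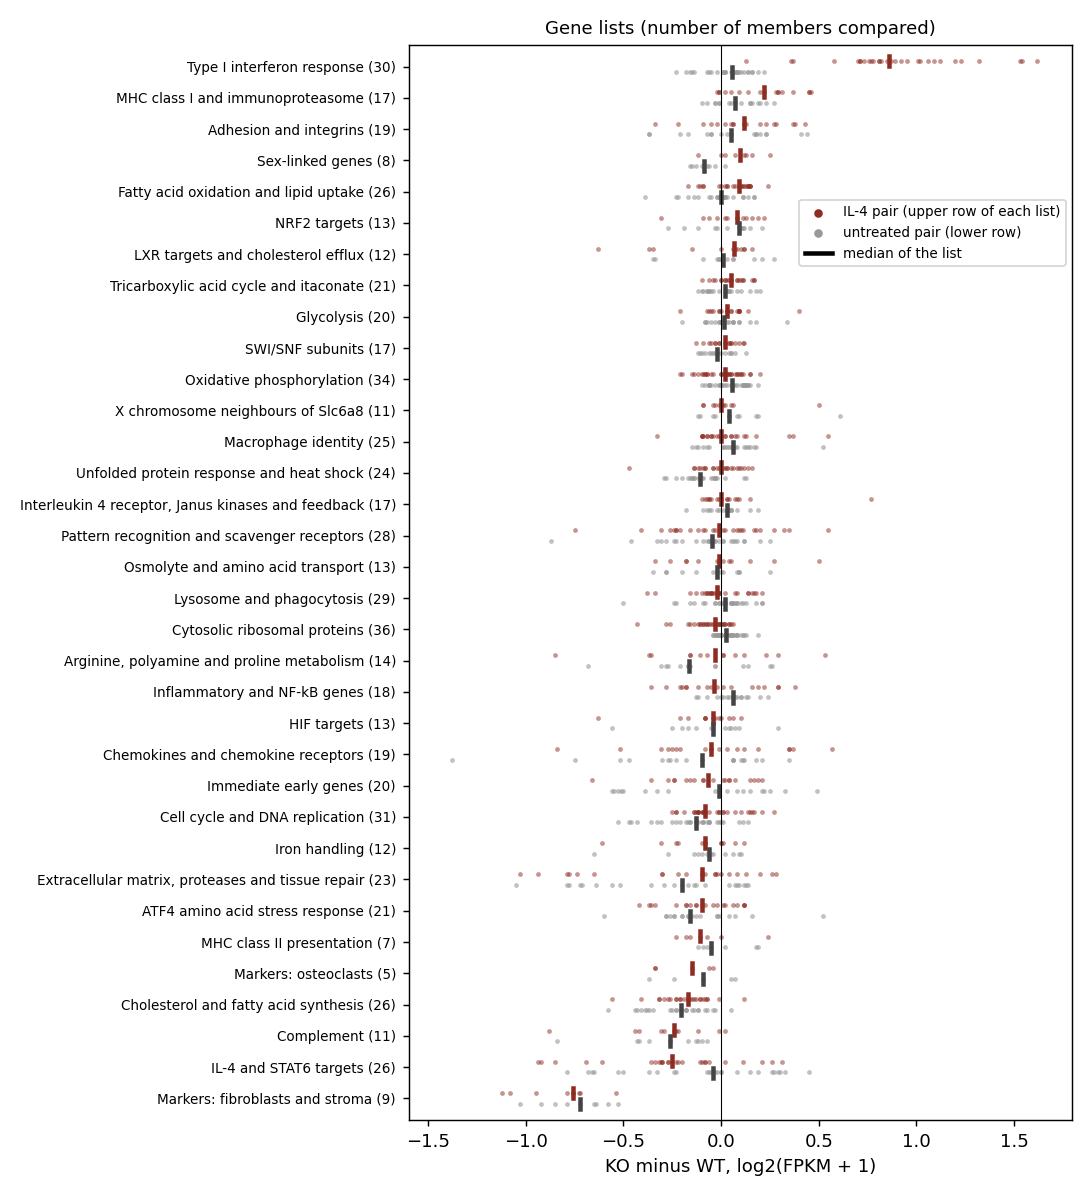
Log2 difference in FPKM + 1 between KO and WT for each compared member of each gene list with at least 5 such members, with vertical bars at the medians, for the IL-4 pair (red, upper row) and the untreated pair (grey, lower row). The type I interferon list stands at the top with medians of 0.86 and 0.05, and the stromal markers stand at the bottom with medians of -0.76 and -0.72.

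A small set of genes differed in the same direction in all 4 KO and WT pairs of the series, peritoneal macrophages included. Of 171 protein-coding genes past 1.5-fold after IL-4, 11 differed the same way by at least 0.25 in the other 3 pairs, a limit set after the values were seen. They were Arg1, Clec4a1, Col3a1, Egr1, Epas1, Gdf3, P4ha2, Slc6a8 and Tmem254b, lower in KO, and Cdkn1c and Mcoln3, higher in KO. How many of all genes compared differed this way in the other 3 pairs was not counted. Slc6a8 is the targeted gene, and reads of Tmem254b can be shared with its copy Tmem254c. Some peritoneal levels were low, at most 3.43 FPKM for Arg1, 1.76 FPKM for Egr1 and 1.74 FPKM for P4ha2. Clec4a1, a C-type lectin receptor, stood at 31.80 FPKM in KO and 54.21 FPKM in WT after IL-4, and at 21.33 FPKM in KO and 39.81 FPKM in WT untreated macrophages. Its peritoneal levels were 0.58 FPKM in KO and 3.60 FPKM in WT with IFN-gamma, and 2.95 FPKM in KO and 6.14 FPKM in WT without it. Mcoln3, an endosomal cation channel, stood at 12.62 FPKM in KO and 7.45 FPKM in WT after IL-4, and at 17.89 FPKM in KO and 10.50 FPKM in WT untreated macrophages. Ide, the insulin-degrading protease, stood at 21.92 FPKM in KO and 12.12 FPKM in WT after IL-4, and at 21.82 FPKM in KO and 12.52 FPKM in WT untreated macrophages. It rose by 0.84 ± 0.05 (SE; edgeR adjusted p = 9.26e-07) and is named here for recurring in both bone marrow pairs.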

How the data were processed

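Bone marrow-derived macrophage RNA was sequenced by the authors, 1 library per group. The authors' deposited tables give RSEM-style expected counts and FPKM per gene and library. Per the submitters' processing notes, Bowtie2 2.2.5, RSEM (its version not stated) and the mm10 build were used. Deposited expected counts were whole within 0.005 for 70.1% to 70.8% of genes. Deposited FPKM values carry no scaling between libraries, and genes absent from a table were taken as 0. Symbols came from RefSeq (GRCm38.p6) for 18076 of 18125 genes, and 7 stayed without a name.

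Log2 ratios of FPKM plus 1 were computed with Python 3.11.15, pandas 2.3.3, numpy 2.4.6 and scipy 1.17.1. The genotype term was fitted to rounded expected counts with edgeR 4.0.16 (quasi-likelihood, TMM, filterByExpr, common biological coefficient of variation 4.59%), and as alternatives with DESeq2 1.42.0 and limma 3.58.1 in R 4.3.3. SEs are the absolute log2 change over the square root of the F statistic. The scripts were tested on simulated counts. The 41 gene lists (883 members) and the comparison were chosen with earlier results of these data known. Genes were named as the 15 highest and 15 lowest protein-coding genes, list members past 2-fold, the extremes of each list, all compared creatine and IL-4 target genes and the leading genotype calls; the text describes part of these, and other genes given as examples were chosen after their values were seen.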

Additional observations from a re-analysis of the deposited data

Results flagged for a closer look

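Of the 79 genes at least 1.5-fold higher in KO after IL-4, 60 were also above 0 in untreated macrophages, where 50.8% of all genes compared were. Of the 96 lower genes, 93 were also below 0 there, against 48.8% of all genes compared. Given here are 5 genes for which the KO library lay above the WT library in 1 pair and below it in the other, taken from those at least 2-fold apart after IL-4, the 15 highest and 15 lowest protein-coding genes and the IL-4 targets at least 1.5-fold apart. The difference between the pairs was not tested. Ifit2 differed by 1.62 after IL-4 and by -0.06 in untreated macrophages, where the counting interval was -0.19 to 0.06. Ifit3 differed by 1.54 after IL-4 and by -0.14 in untreated macrophages on the log2(FPKM + 1) scale. Ifi208, a PYHIN gene, differed by 1.21 after IL-4 and by -0.14 in untreated macrophages. Il4i1 differed by -0.69 after IL-4 and by 0.26 in untreated macrophages, where both libraries were near 1 FPKM. Rpl14-ps1 differed by 5.62 after IL-4 and by -0.20 in untreated macrophages. Its first value depends on the pseudocount, since the gene was listed at 0 in the WT IL-4 library, and its reads can be shared with Rpl14.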

How the results depend on the processing

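No paired analysis was possible because every group holds 1 replicate, and no replicate could be left out for the same reason. With a pseudocount of 5 FPKM in place of 1, 9 genes were at least 2-fold higher in KO after IL-4 (21 in the report) and 3 at least 2-fold lower (8 in the report), and the median of the type I interferon response was 0.70 (0.86 in the report). With a pseudocount of 0.1 FPKM, 13 genes were at least 2-fold lower. A limit of 1.5-fold gave 79 higher and 96 lower genes. Under the other filters and scalings tried, 19 to 31 genes were higher and 8 to 12 lower. The genotype term gave 324 genes that rose and 573 that fell by edgeR, against 44 and 127 by DESeq2, which gave an adjusted p to 9367 genes, and 69 and 230 by limma. At an unadjusted p under 0.05, edgeR had 2361 genes, DESeq2 670 and limma 2109. The other edgeR settings gave 232 to 333 that rose and 460 to 573 that fell. The cause of these differences in count was not tested. Of 808 values of single genes and smaller lists under another pseudocount or scaling, 722 lay within an interval and 86 outside it. For a list this was the 95% binomial interval of the median. For a gene it was the counting interval without a pseudocount, which need not hold the reported value. Ifit2, for example, is reported at 1.62 with an interval of 1.66 to 2.01. A change of sign was looked for only in lists with a median beyond 0.1 and in 80 of the 173 named genes, those at least 1.5-fold apart. It was found in 0 of them. Rescaling moved the median of all genes by 0.013.

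Short genes near the 5 FPKM filter hold few counts, for example Batf3, with 80 counts in KO and 99 in WT after IL-4 and a counting interval of -0.80 to 0.09. Counting error is the only error available for the IL-4 pair, and variation between cultures or animals is not measured. Genotype is confounded with culture in each pair. Near-identical gene copies and antisense overlaps remain uncertain in these counts.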

Other observations

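Genes with a mean decrease of at least 2-fold with IL-4 over both genotypes numbered 14 of the 8054 compared. Genes that ended below 5 FPKM in both IL-4 libraries were not compared, so the count leaves them out. Of the 14, 10 were higher in KO than in WT after IL-4, or 71.4% against 54.7% of all genes compared. Their median difference was 0.19 after IL-4, against 0.02 in untreated macrophages. The set was chosen from the IL-4 libraries themselves, and its highest value, 5.62, belongs to Rpl14-ps1, whose reads can be shared with Rpl14. Rpl14-ps1 was lower with IL-4 in WT alone. In KO it stood at 38.00 FPKM untreated and 48.06 FPKM after IL-4. Among genes that differed in both bone marrow pairs, Lsp1, a leukocyte actin-binding protein, stood at 103.53 FPKM in KO and 69.14 FPKM in WT after IL-4, and at 138.79 FPKM in KO and 91.83 FPKM in WT untreated macrophages. It rose by 0.60 ± 0.05 on the log2 scale (SE; edgeR adjusted p = 8.39e-06). Slc2a6, a lysosomal sugar transporter, stood at 56.14 FPKM in KO and 38.65 FPKM in WT after IL-4, and at 32.12 FPKM in KO and 20.56 FPKM in WT untreated macrophages. Cx3cr1, the fractalkine receptor, was repressed by IL-4 in both genotypes and stood at 23.69 FPKM in KO and 18.38 FPKM in WT after IL-4, against 78.32 FPKM in KO and 74.99 FPKM in WT untreated macrophages. These genes were chosen after their values were seen.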
